A study of Mus musculus with 44 samples.

Results

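The 41 genes described here encode the transcription factor NRF2 (gene Nfe2l2), its sensor KEAP1, and enzymes of antioxidant defence, many of which are NRF2 targets. They were chosen by gene symbol, and all 41 were found among the 22674 genes of the maturation table and among the 18274 genes of the ovulation table, and all 41 passed the filters on low values in both. The study measured RNA from ovarian follicles of wild-type CD-1 mice exposed to perfluorononanoic acid (PFNA), a perfluorinated fatty acid analogue used in manufacturing, during either of 2 windows. In the gonadotropin-dependent maturation window, 11 control libraries of follicles given DMSO (the solvent) were set against 10 libraries of follicles given PFNA. In the ovulation window, 12 control libraries of follicles given hCG (human chorionic gonadotropin, a hormone that triggers ovulation) were set against 11 libraries of follicles given hCG and PFNA, and the labels name no solvent for either of these groups. The labels state neither the age of the mice nor a dose, an exposure time or a batch. They also do not say whether libraries came from separate animals, so the p-values measure the spread between these libraries, which may be partly technical.

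NRF2 is a transcription factor that KEAP1 marks for destruction in unstressed cells. Oxidants and electrophiles that modify KEAP1 let NRF2 reach the nucleus, where it pairs with small MAF proteins and binds antioxidant response elements near genes of glutathione supply, thioredoxin cycling, detoxification and iron storage. In the ovary, granulosa cells produce reactive oxygen species during steroid synthesis and after the ovulatory hormone surge, and glutathione made in the follicle also protects the oocyte.

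The core of the antioxidant response element, TGACNNNGC, was searched on both strands of the RefSeq promoter sequences (GRCm38.p6, 250 bases before to 50 after a start). Of the 41 genes, 35 had at least 1 promoter in the table. The core was present for 11 of those 35 (31.4%), against 14.0% of all 27025 genes in the table. The 11 were Mgst1, Txnrd1, Pgd, Nfe2l2, Gclm, Gstm5, Prdx1, Me1, Srxn1, Sod1 and G6pdx. In Prdx1 and Me1 the match also contains the AP-1 motif TGACTCA. A match is a description of the letters and not a site of binding. The 4 promoters below are shown because, of the genes with a match, theirs had the smallest p-values for PFNA in the maturation or the ovulation window. Each is printed 5′ to 3′ on the gene's strand with the match in capitals. That strand is plus for Mgst1 and Txnrd1 and minus for Pgd and Nfe2l2. On the printed strand the capitals of Mgst1 and Txnrd1 read as the reverse complement, so the core (TGACCGTGC and TGACAAAGC) lies on the other strand.
Mgst1 chr6:138140277-138140576: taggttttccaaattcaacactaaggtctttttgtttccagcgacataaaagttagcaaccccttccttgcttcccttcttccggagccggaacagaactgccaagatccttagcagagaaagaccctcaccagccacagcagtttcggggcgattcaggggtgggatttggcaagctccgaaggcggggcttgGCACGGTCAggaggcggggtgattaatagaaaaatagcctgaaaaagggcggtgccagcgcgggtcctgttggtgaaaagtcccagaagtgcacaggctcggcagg
Txnrd1 chr10:82858956-82859255: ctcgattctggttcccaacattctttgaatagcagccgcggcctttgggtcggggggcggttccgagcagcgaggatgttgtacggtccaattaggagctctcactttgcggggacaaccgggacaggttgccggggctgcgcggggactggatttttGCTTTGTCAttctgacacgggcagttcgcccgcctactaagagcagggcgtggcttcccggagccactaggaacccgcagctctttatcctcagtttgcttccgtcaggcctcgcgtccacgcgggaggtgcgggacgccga
Pgd chr4:149166033-149166332: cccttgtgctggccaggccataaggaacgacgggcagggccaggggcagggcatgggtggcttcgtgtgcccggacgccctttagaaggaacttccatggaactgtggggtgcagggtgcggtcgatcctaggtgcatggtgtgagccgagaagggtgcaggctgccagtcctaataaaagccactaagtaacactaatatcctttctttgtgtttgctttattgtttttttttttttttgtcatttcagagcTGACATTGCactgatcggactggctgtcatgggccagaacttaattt
Nfe2l2 chr2:75704614-75704913: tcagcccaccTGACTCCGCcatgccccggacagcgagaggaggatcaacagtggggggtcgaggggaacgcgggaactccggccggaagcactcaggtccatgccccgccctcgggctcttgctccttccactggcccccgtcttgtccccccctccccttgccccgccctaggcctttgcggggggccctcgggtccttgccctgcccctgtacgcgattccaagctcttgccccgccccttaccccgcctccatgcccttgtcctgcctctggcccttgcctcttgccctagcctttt
The match was centred 52 bases before the start in Mgst1, 88 before in Txnrd1, 236 before in Nfe2l2 and 7 after in Pgd. The Pgd match, being after the start, lies in transcribed sequence of the gene and not upstream of it. The promoters of Mgst1, Txnrd1 (1 of 3 in the table) and Pgd (1 of 2) belong to starts inside the span that the maturation table gives for the gene. The matches of Mgst1 and Txnrd1, although before those starts, therefore also lie within the span of the gene, and only the Nfe2l2 match lies outside it. The genes of these 4 promoters did not move as 1 group: under PFNA, Txnrd1 rose in both windows, Mgst1 and Pgd rose in the maturation window and fell in the ovulation window, and Nfe2l2 fell in the ovulation window, as described below.

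Levels of the maturation window are in TPM, transcript levels corrected for length and scaled to the same sum in every library. Levels of the ovulation window are in CPM, counts scaled by library size without that correction, so levels are compared between genes only in TPM. Ovulation libraries held between 10600932 and 19511531 counts, and the depth of the maturation libraries is unknown because TPM keep no depth. Of 11 tested oocyte markers, 11 were called lower under PFNA in the maturation window: they summed to 128 to 206 TPM in the controls, to 1.37 to 3.31 TPM in PFNA libraries 3 to 9, and to 134, 115 and 351 TPM in PFNA libraries 1, 2 and 10. Granulosa markers were abundant in all libraries of this window (14310 TPM or more in sum), and 5 of 9 were called lower, as was 1 of 9 theca markers. Of 3 tested macrophage and leukocyte markers, 2 were called higher, with sums of 2.12 to 81.3 TPM in controls and 32.1 to 195 TPM under PFNA. In the ovulation window, 6 of 11 oocyte markers were called higher (sums of 81.1 to 407 CPM in controls and 14.3 to 495 CPM under PFNA), as were 5 of 5 endothelial markers (30.0 to 110 and 39.1 to 319 CPM). Also called higher there were 6 of 9 granulosa, 4 of 9 theca and 2 of 6 leukocyte markers, while 2 granulosa and 2 theca markers were called lower. Globin genes were not analysed here.

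During follicle maturation, PFNA moved 20 of the 41 genes, in both directions. A gene is called higher or lower here when its p-value, adjusted over all genes tested, was under 0.05. In this window 12 genes (29.3%) were higher, beside a background of 13.3% of the 13712 genes tested, and 8 (19.5%) were lower, beside a background of 16.1%. The median log2 fold change was 0.07 for the 41 genes and 0.02 for all genes, and the median size of change, in either direction, was 0.21 and 0.20. Microsomal glutathione transferase Mgst1, the catalytic subunit of glutathione synthesis Gclc and the glutathione transferases Gstt1 and Gsto1 rose, while the phospholipid hydroperoxidase Gpx4 and the pentose phosphate enzymes Taldo1 and Tkt fell. Only Mgst1 had every PFNA library above every control, a pattern seen in 0.489% of all genes. None of the 41 had every PFNA library below every control, against 0.788% of all genes. These are bulk libraries, in which fewer cells of a type and less RNA per cell cannot be told apart. With the oocyte marker score as a covariate, 9 of the 12 higher genes and 3 of the 8 lower genes were still called, and over all genes the calls fell to 539 higher and 513 lower. Gclm, Prdx4, Prdx5, Pgd, Taldo1, Tkt, Me1 and Ftl1 lost their call in that fit (limma adjusted p = 0.056 to 0.99). The log2 fold changes of Prdx4 (-0.28 in place of -0.51), Tkt (-0.21 in place of -0.33) and Gclm (0.0024 in place of -0.24) moved by more than 1.5 times. Those of Prdx5 (-0.15), Pgd (0.25), Taldo1 (-0.41), Me1 (0.46) and Ftl1 (0.23) moved by less. The score ran from -0.33 to 0.42 in the controls and from -3.06 to -2.88 in PFNA libraries 3 to 9. In those libraries the score and PFNA cannot be told apart, so a lost or kept call does not assign a change to either. Libraries 1 and 2 of the PFNA group, whose oocyte markers were near control levels, were left out together in another fit: 15 genes were then higher and 9 lower, with Txn1, Gstm1, Gstm2 and Sqstm1 gained. Calls over all genes rose in that fit too, to 2600 higher and 2601 lower of 13725 tested.

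During hCG-induced ovulation, 33 of the 41 genes were called. Here 18 genes (43.9%) were higher, beside a background of 38.0% of the 13441 genes tested, and 15 (36.6%) were lower, beside a background of 35.2%, so both shares lay near those of all genes. The median log2 fold change was -0.07 for the 41 genes and 0.04 for all genes, and the median size was 0.68 and 0.58. Changes of at least 2-fold were seen for 12 of the 41 genes and for 27.4% of all genes, compared with 2 of the 41 and 5.12% in the maturation window. Heme oxygenase Hmox1, thioredoxin reductase Txnrd1, catalase (Cat) and the autophagy receptor p62 (Sqstm1) rose, while Nfe2l2 itself, Mgst1, thioredoxin (Txn1), mitochondrial superoxide dismutase Sod2 and ferritin heavy chain Fth1 fell. Of the 41, 7 had every PFNA library above every control (11.9% of all genes did) and 7 had every one below (14.1% of all genes did). The 7 above were Hmox1, Txnrd1, Prdx1, Prdx4, Cat, Gstm1 and Sqstm1, and the 7 below were Nfe2l2, Txn1, Prdx5, Sod2, Mgst1, Pgd and Fth1. The part of the cell type markers given above in these results was not tested beyond the oocyte score, with which 19 genes were higher and 16 lower. Over all 13441 genes tested, 4693 were higher and 4708 lower with that score.

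**Figure D1:**
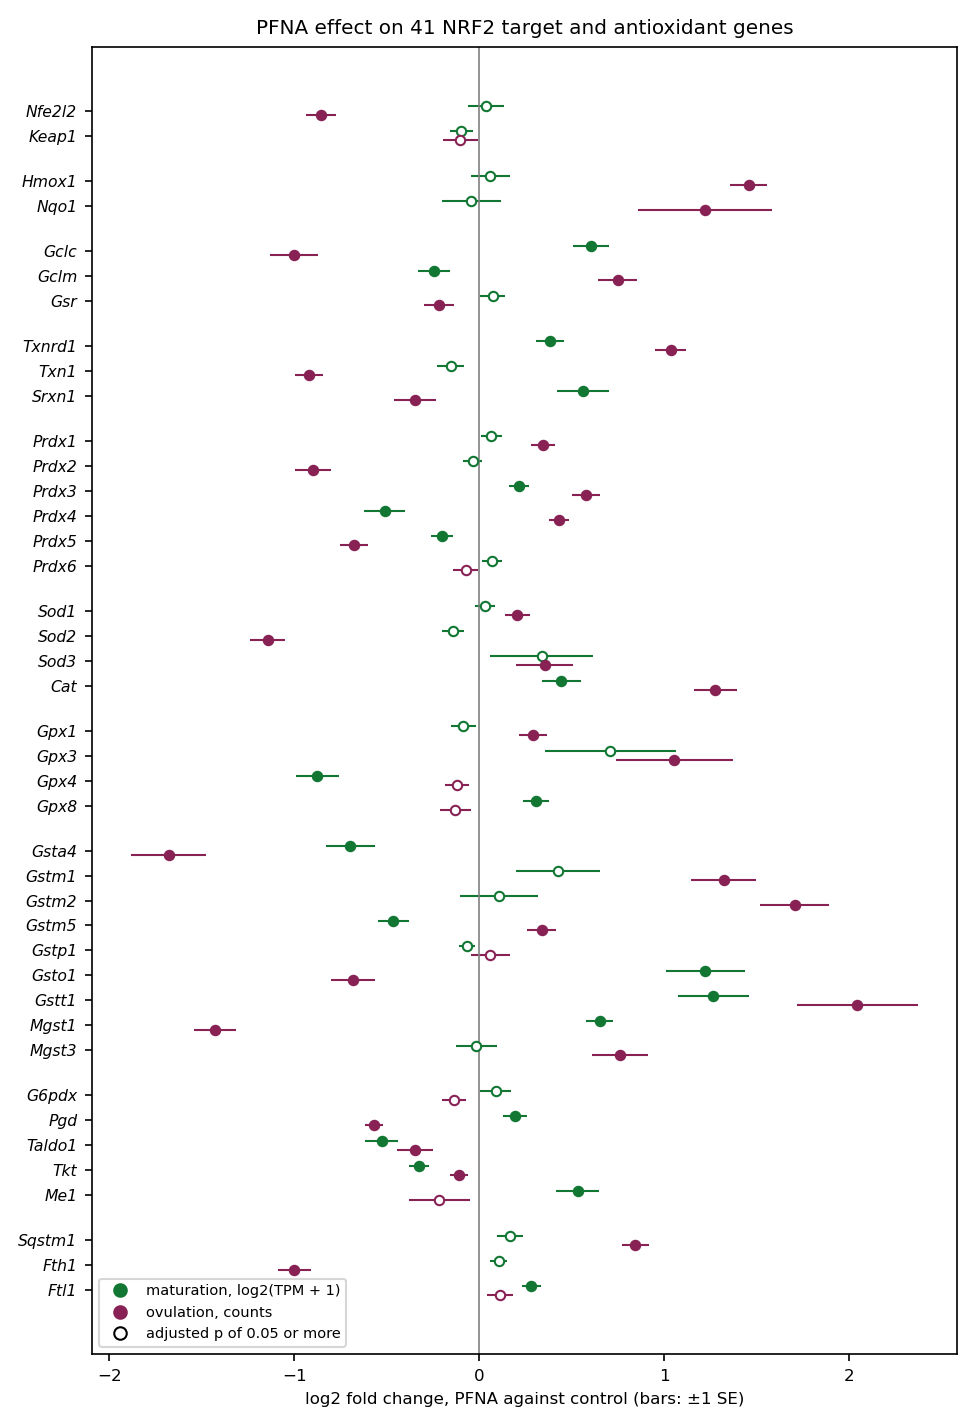
Log2 fold change of PFNA against control (x axis, with bars of 1 SE) for the 41 genes (y axis, grouped by role) in the maturation window (limma on log2(TPM + 1)) and the ovulation window (edgeR on counts). Filled points have an adjusted p under 0.05. Filled points of the 2 windows lie on opposite sides of 0 for 8 genes, among them Mgst1, Gclc and Gsto1. The share of all genes that did so was not computed.

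Nfe2l2 fell in the ovulation window, and no change of its sensor Keap1 was called in either window. Nfe2l2 (chromosome 2, 75675513 to 75704641 in GRCm38, exons and introns included, as for all spans here) measured 18.7 to 29.8 TPM in the controls (median 20.8) and 17.1 to 31.2 TPM under PFNA (median 23.1) in the maturation window. The groups overlapped broadly, and no change was called (log2 fold change 0.04 ± 0.097 SE, limma adjusted p = 0.82). Nfe2l2 during ovulation measured 118 to 176 CPM in the controls (median 142) and 58.5 to 104 CPM under PFNA (median 79.6). Every PFNA library was below every control, and Nfe2l2 fell (log2 fold change -0.85 ± 0.081 SE, edgeR adjusted p = 7.9e-10). Keap1 (chromosome 9, 21229730 to 21239361), the adaptor that brings NRF2 to its ubiquitin ligase, measured 57.1 to 82.5 TPM in the controls (median 72.2) and 59.8 to 73.9 TPM under PFNA (median 65.99) in the maturation window. All 10 PFNA values lay within the control range (log2 fold change -0.10 ± 0.061 SE, limma adjusted p = 0.25). Keap1 during ovulation measured 44.3 to 60.02 CPM in the controls (median 49.5) and 36.7 to 69.5 CPM under PFNA (median 43.4). The groups overlapped, with 6 PFNA libraries below and 2 above all controls (log2 fold change -0.10 ± 0.093 SE, edgeR adjusted p = 0.33). Without PFNA library 2 of the ovulation window, Keap1 was called lower (log2 fold change -0.18, edgeR adjusted p = 0.0495).

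The heme and quinone enzymes were called higher in the ovulation window and not in the maturation window. Hmox1 (chromosome 8, 75093621 to 75100589), which degrades heme, measured 39.8 to 74.5 CPM in the controls (median 54.04) and 125 to 185 CPM under PFNA (median 143) in that window. The groups were fully separate, and Hmox1 had the smallest p of the 41 genes there (log2 fold change 1.46 ± 0.10 SE, edgeR adjusted p = 1.9e-12). Hmox1 during maturation measured 38.8 to 71.3 TPM in the controls (median 52.9) and 44.9 to 77.2 TPM under PFNA (median 56.1). The ranges overlapped over most of their length (log2 fold change 0.06 ± 0.11 SE, limma adjusted p = 0.71). The effect of PFNA on Hmox1 was higher in the ovulation window by 1.39 (SE 0.14, adjusted p = 2.1e-11), by the test of the difference described below. Nqo1 (chromosome 8, 107388225 to 107403206), a quinone reductase, was near the lower limit of measurement, with 2 to 20 counts per control library and 4 to 43 per PFNA library of the ovulation window. It measured 0.149 to 1.45 CPM in the controls (median 0.551) and 0.355 to 3.07 CPM under PFNA (median 1.58). Of 11 PFNA libraries 6 exceeded all controls and the others overlapped them (log2 fold change 1.22 ± 0.36 SE, edgeR adjusted p = 0.0039). During maturation Nqo1 measured 1.02 to 2.34 TPM in the controls (median 1.45) and 0.252 to 2.56 TPM under PFNA (median 1.54). No change was called (log2 fold change -0.04 ± 0.16 SE, limma adjusted p = 0.87). The difference between the effects on Nqo1 was 0.62 (SE 0.23, adjusted p = 0.017), and 1.26 with a pseudocount of 0.1 in place of 1 (adjusted p = 0.013).

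Glutathione synthesis split between its subunits. Gclc (chromosome 9, 77754535 to 77794485), the catalytic subunit of glutamate-cysteine ligase, measured 15.7 to 24.9 TPM in the controls (median 22.1) and 23.6 to 47.1 TPM under PFNA (median 32.6) in the maturation window. It rose, with 9 of 10 PFNA libraries above every control and the other within the control range (log2 fold change 0.60 ± 0.098 SE, limma adjusted p = 1.0e-04). Gclc had the reverse change in the ovulation window, with 475 ± 127 CPM in controls and 237 ± 39.2 CPM under PFNA (SD, n = 12 and 11), with 10 of 11 PFNA libraries below every control (log2 fold change -1.001 ± 0.13 SE, edgeR adjusted p = 1.2e-07). Gclm (chromosome 3, 122245557 to 122270732), the modifier subunit, went the other way in each window: it rose in the ovulation window, with 40.96 ± 8.78 CPM in controls and 68.8 ± 9.06 CPM under PFNA (log2 fold change 0.75 ± 0.10 SE, edgeR adjusted p = 5.4e-07). Its lower call in the maturation window was at the threshold (log2 fold change -0.24 ± 0.087 SE, limma adjusted p = 0.040). That call was lost with no filter on low values, with the oocyte covariate, and in 13 of 21 fits that each left out 1 library (limma adjusted p = 0.054 to 0.077): controls 2, 5, 6, 7, 9, 10 and 12, and PFNA libraries 3, 4, 5, 7, 8 and 9. Glutathione reductase Gsr was not called in the maturation window (log2 fold change 0.07) and fell in the ovulation window (log2 fold change -0.22 ± 0.079 SE, edgeR adjusted p = 0.016).

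Of the thioredoxin genes, Txnrd1 rose in both windows. Txnrd1 (chromosome 10, 82833951 to 82897712), the cytosolic reductase that recharges thioredoxin, measured 11.9 to 17.7 TPM in the controls (median 15.6) and 17.4 to 29.1 TPM under PFNA (median 19.5) in the maturation window. Of 10 PFNA libraries 9 exceeded all controls (log2 fold change 0.38 ± 0.076 SE, limma adjusted p = 7.4e-04). Ovulation libraries held 239 to 354 CPM in the controls (median 276) and 452 to 809.8 CPM under PFNA (median 569.7). The groups did not overlap there (log2 fold change 1.04 ± 0.083 SE, edgeR adjusted p = 3.5e-11). Its substrate thioredoxin, Txn1 (chromosome 4, 57943373 to 57956411), measured 232 to 344 CPM in the controls (median 266) and 123 to 185 CPM under PFNA (median 135) in the ovulation window. All PFNA libraries were below all controls, opposite to the reductase (log2 fold change -0.92 ± 0.074 SE, edgeR adjusted p = 3.7e-11). Txn1 in the maturation window had a log2 fold change of -0.15 (limma adjusted p = 0.12). It was called lower there without PFNA library 1 (adjusted p = 0.046) or PFNA library 2 (adjusted p = 0.037). Srxn1, the sulfiredoxin that repairs over-oxidised peroxiredoxins, rose in the maturation window and fell in the ovulation window (log2 fold change 0.56, limma adjusted p = 0.0051, and -0.35, edgeR adjusted p = 0.0091).

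Peroxiredoxins, which reduce peroxides, most of them with electrons from thioredoxin, moved in different directions. Prdx4 (chromosome X, 155323918 to 155340754), the endoplasmic reticulum member, measured 49.3 to 61.8 TPM in the controls (median 57.6) and 28.7 to 59.9 TPM under PFNA (median 37.97) in the maturation window. It fell, with 8 of 10 PFNA libraries below all controls, and libraries 1 and 2 within the control range (log2 fold change -0.51 ± 0.11 SE, limma adjusted p = 0.0013). Prdx4 rose in the ovulation window, with 82.1 ± 6.45 CPM in controls and 111 ± 10.1 CPM under PFNA and no overlap between groups (log2 fold change 0.43 ± 0.055 SE, edgeR adjusted p = 1.3e-07). Prdx2 (chromosome 8, 84969587 to 84974834), a cytosolic member, measured 352 to 445 CPM in the controls (median 408) and 166 to 356 CPM under PFNA (median 202) in the ovulation window. It fell, and 1 PFNA library reached the control range (log2 fold change -0.90 ± 0.096 SE, edgeR adjusted p = 5.8e-09). Mitochondrial Prdx3 rose in both windows (log2 fold change 0.21 and 0.58), and Prdx5 fell in both (-0.20 and -0.68). Cytosolic Prdx1 rose in the ovulation window (0.34) and was not called in the maturation window (0.07), with a difference between the effects of 0.26 (SE 0.087, adjusted p = 0.0069), and Prdx6 was called in neither (0.07 and -0.07). Reads of Prdx1 and Prdx2 are partly uncertain, since 10.9% and 8.96% of their 50-base stretches also occur in other genes.

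Among the enzymes that remove superoxide and hydrogen peroxide, Sod2 and Cat showed opposite changes in the ovulation window. Sod2 (chromosome 17, 13006846 to 13040063), the mitochondrial manganese enzyme, measured 109.8 to 172 CPM in the controls (median 136) and 43.3 to 85.3 CPM under PFNA (median 61.1) in that window. It fell with no overlap between groups (log2 fold change -1.14 ± 0.097 SE, edgeR adjusted p = 8.5e-11). Its value in the maturation window was 21.7 ± 1.85 TPM in controls and 19.6 ± 1.98 TPM under PFNA, with no change called (log2 fold change -0.14 ± 0.059 SE, limma adjusted p = 0.077). It was called lower there with median-ratio size factors (limma adjusted p = 0.042), without control 2 (0.0496) and without PFNA library 3 (0.033). Cat (chromosome 2, 103453849 to 103485160), the peroxisomal enzyme that splits hydrogen peroxide, measured 14.3 to 22.7 CPM in the controls (median 17.7) and 29.7 to 64.8 CPM under PFNA (median 40.4) in the ovulation window. All PFNA libraries exceeded all controls (log2 fold change 1.28 ± 0.12 SE, edgeR adjusted p = 3.8e-10). Cat also rose in the maturation window, with 19.4 ± 2.97 TPM in controls and 27.04 ± 6.06 TPM under PFNA (SD, n = 11 and 10), with 6 of 10 PFNA libraries above all controls (log2 fold change 0.44 ± 0.10 SE, limma adjusted p = 0.0031). Cytosolic Sod1 rose in the ovulation window (log2 fold change 0.21). Extracellular Sod3 had the weakest call of this role there (log2 fold change 0.35 ± 0.15 SE, edgeR adjusted p = 0.041). That call was lost with no filter on low counts (adjusted p = 0.063) and in 11 of 23 fits that each left out 1 library: controls 1, 2, 5, 8, 10 and 12, and PFNA libraries 1, 3, 5, 7 and 9 (adjusted p = 0.052 to 0.089). Sod3 spread widely in the maturation window, from 23.2 to 151 TPM under PFNA, and was not called.

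Among the 41 genes, Gpx4 had the second smallest p of the maturation window. Gpx4 (chromosome 10, 80047166 to 80056439), which reduces lipid hydroperoxides in membranes and guards against ferroptosis, measured 196 to 256 TPM in the controls (median 234) and 91.1 to 205 TPM under PFNA (median 117). It fell: libraries 1 and 2 of the PFNA group held 205 and 200.3 TPM, within the control range, and the other 8 held 91.1 to 124 TPM, below every control (log2 fold change -0.87 ± 0.12 SE, limma adjusted p = 1.9e-05). The same 8 libraries include PFNA library 10, whose oocyte markers were high. Reads of Gpx4 are uncertain, because 61.7% of its 50-base stretches also occur in the pseudogene Gpx4-ps2. No change was called in the ovulation window (log2 fold change -0.12 ± 0.063 SE, edgeR adjusted p = 0.092), where Gpx4 was called lower with no filter on low counts (adjusted p = 0.038) and without PFNA library 5 (0.036) or 6 (0.040). Gpx8 rose in the maturation window (log2 fold change 0.31 ± 0.07 SE, limma adjusted p = 0.0025). It was not called in the ovulation window (-0.13), except as lower without PFNA library 6 (-0.17, edgeR adjusted p = 0.049). Cytosolic Gpx1 and secreted Gpx3 rose in the ovulation window (log2 fold change 0.29 and 1.05), and Gpx3 had the widest spread of the 41 genes among maturation controls, with a coefficient of variation of 56.6%.

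Of the 9 glutathione transferases, which attach glutathione to reactive compounds, 3 rose and 2 fell in the maturation window, and 5 rose and 3 fell in the ovulation window. Mgst1 (chromosome 6, 138140316 to 138156755), a membrane enzyme that also reduces lipid peroxides, measured 55.9 to 74.98 TPM in the controls (median 64.5) and 84.6 to 135 TPM under PFNA (median 101) in the maturation window. It rose in every PFNA library beyond every control (log2 fold change 0.65 ± 0.074 SE, limma adjusted p = 5.0e-06). Mgst1 during ovulation measured 419 to 821 CPM in the controls (median 498) and 147 to 262 CPM under PFNA (median 209). It fell there, again with no overlap (log2 fold change -1.43 ± 0.11 SE, edgeR adjusted p = 2.4e-11). No other of the 41 genes separated the groups fully in both windows, and Mgst1 did so in opposite directions. Gstt1 (chromosome 10, 75783813 to 75798584), a theta class enzyme at low level, measured 1.77 to 4.66 TPM in the controls (median 3.51) and 4.20 to 18.00 TPM under PFNA (median 9.08) in the maturation window. It rose, with 9 of 10 PFNA libraries above all controls (log2 fold change 1.27 ± 0.19 SE, limma adjusted p = 5.4e-05).

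Gstt1 also rose in the ovulation window, where it held 5 to 33 counts per control library and 21 to 136 per PFNA library (log2 fold change 2.04 ± 0.33 SE, edgeR adjusted p = 4.3e-06). Gsto1 (chromosome 19, 47854970 to 47864790), an omega class enzyme, measured 3.13 to 9.97 TPM in the controls (median 6.06) and 8.93 to 30.4 TPM under PFNA (median 14.1) in the maturation window. It rose, with 3 PFNA libraries still within the control range (log2 fold change 1.22 ± 0.21 SE, limma adjusted p = 2.1e-04), and fell in the ovulation window (log2 fold change -0.68 ± 0.12 SE, edgeR adjusted p = 1.4e-05). Gsta4 (chromosome 9, 78182774 to 78209349), which conjugates the lipid peroxidation product hydroxynonenal, measured 61.4 to 84.5 TPM in the controls (median 70.2) and 27.2 to 67.7 TPM under PFNA (median 47.8) in the maturation window. It fell in both windows, with 8 of 10 and 10 of 11 PFNA libraries below all controls (log2 fold change -0.70 ± 0.13 SE, limma adjusted p = 4.7e-04, and log2 fold change -1.68 ± 0.20 SE, edgeR adjusted p = 7.3e-08).

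The mu class genes Gstm1, Gstm2 and Gstm5 lie in 1 cluster on chromosome 3. Gstm5 (107895821 to 107898686) measured 112 to 180.0 TPM in the controls (median 146) and 79.9 to 131 TPM under PFNA (median 104) in the maturation window. It fell, with 7 of 10 PFNA libraries below all controls (log2 fold change -0.46 ± 0.083 SE, limma adjusted p = 2.8e-04), and rose in the ovulation window (log2 fold change 0.34). Gstm2 (107981702 to 107986453) measured 40.7 to 148 CPM in the controls (median 76.1) and 139.6 to 416 CPM under PFNA (median 266) in the ovulation window. It rose, and a single PFNA library lay within the control range (log2 fold change 1.71 ± 0.19 SE, edgeR adjusted p = 1.5e-08). Reads of Gstm2 are partly uncertain, since 9.36% of its 50-base stretches also occur in other genes. Gstm1 rose in the same window (log2 fold change 1.32 ± 0.18 SE, edgeR adjusted p = 3.5e-07), although 23.1% of its 50-base stretches also occur in other genes. Neither was called in the maturation window, and their PFNA libraries spread from 227 to 1138 TPM (Gstm1) and from 234 to 1223 TPM (Gstm2), with libraries 1 and 2 below all controls. Without libraries 1 and 2 both were called higher (log2 fold change 0.71, limma adjusted p = 0.0019, and 0.37, adjusted p = 0.041), and Gstm1 also without library 1 alone (0.57, adjusted p = 0.030). Mgst3 rose in the ovulation window (log2 fold change 0.76). Gstp1, which shares 62.3% of its 50-base stretches with Gstp2, was called in neither window.

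Of the 5 enzymes that supply NADPH or feed the pentose phosphate pathway, 2 rose and 2 fell in the maturation window, and 3 fell in the ovulation window with none higher. Taldo1 (chromosome 7, 141392199 to 141402968), transaldolase, measured 88.2 to 132 TPM in the controls (median 119) and 62.7 to 102 TPM under PFNA (median 80.6) in the maturation window. It fell, with 6 PFNA libraries below all controls (log2 fold change -0.53 ± 0.089 SE, limma adjusted p = 1.5e-04). Tkt (chromosome 14, 30548359 to 30574720), transketolase, measured 86.98 to 113 TPM in the controls (median 102) and 62.7 to 91.2 TPM under PFNA (median 80.97). It fell as well, with 9 of 10 below all controls (log2 fold change -0.33 ± 0.055 SE, limma adjusted p = 1.7e-04). Taldo1 fell in the ovulation window too (log2 fold change -0.35, edgeR adjusted p = 0.0028). For Tkt the call there was at the threshold (log2 fold change -0.11 ± 0.049 SE, edgeR adjusted p = 0.047). It was lost with median-ratio size factors (adjusted p = 0.11), with DESeq2 (0.084) and in 12 of 23 fits that each left out 1 library: controls 1, 6, 8, 9, 10, 11 and 12, and PFNA libraries 1, 5, 7, 8 and 11 (0.055 to 0.084).

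Pgd (chromosome 4, 149149991 to 149166771), the phosphogluconate dehydrogenase that yields NADPH, measured 114 to 139 CPM in the controls (median 123) and 70.7 to 92.9 CPM under PFNA (median 82.6) in the ovulation window. It fell with no overlap between groups (log2 fold change -0.57 ± 0.049 SE, edgeR adjusted p = 1.2e-10). Pgd rose in the maturation window (log2 fold change 0.19 ± 0.064 SE, limma adjusted p = 0.026), a call lost without PFNA library 7 (log2 fold change 0.16, adjusted p = 0.053) or 10 (0.17, adjusted p = 0.0504). Malic enzyme Me1 rose in the maturation window (log2 fold change 0.53 ± 0.12 SE, limma adjusted p = 0.0017). It was not called in the ovulation window, where PFNA library 6 held 1884 CPM against a PFNA median of 717 CPM. Without that library Me1 was called lower (log2 fold change -0.43, edgeR adjusted p = 7.0e-04). Reads of Me1 are uncertain, since 26.5% of its 50-base stretches also occur in other genes. Those of G6pdx are partly uncertain, with 7.6% of its stretches also in G6pd2. G6pdx, the rate-limiting entry of the pathway, was called in neither window (log2 fold change 0.09 and -0.13), but was called lower in the ovulation window with no filter on low counts (adjusted p = 0.022), with the oocyte covariate (0.0057), and without control 3 (0.037) or PFNA library 6 (0.0078), 9 (0.043) or 10 (0.033).

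The ferritin subunits, which store iron, did not move together. Ftl1 (chromosome 7, 45457944 to 45459884), the light chain, measured 3779.5 to 4895 TPM in the controls (median 4592) and 4514 to 6231 TPM under PFNA (median 5465) in the maturation window. It rose, with 9 of 10 PFNA libraries above all controls (log2 fold change 0.28 ± 0.052 SE, limma adjusted p = 3.5e-04), but 78.9% of its 50-base stretches also occur in other genes, pseudogenes among them, so its reads are uncertain. Fth1 (chromosome 19, 9980598 to 9985098), the heavy chain, which oxidises the iron, measured 1198 to 1685 CPM in the controls (median 1312) and 508 to 898 CPM under PFNA (median 684) in the ovulation window. It fell with no overlap (log2 fold change -0.999 ± 0.089 SE, edgeR adjusted p = 2.1e-10), while Ftl1 was not called there (log2 fold change 0.11 ± 0.07 SE, edgeR adjusted p = 0.16) but was called higher with the oocyte covariate (log2 fold change 0.17, adjusted p = 0.020). Fth1 was not called in the maturation window (log2 fold change 0.11 ± 0.045 SE, limma adjusted p = 0.079). Sqstm1 (chromosome 11, 50199366 to 50210827), encoding p62, an autophagy receptor that also sequesters KEAP1, measured 514 to 656 CPM in the controls (median 574) and 814 to 1274 CPM under PFNA (median 999) in the ovulation window. It rose with no overlap (log2 fold change 0.84 ± 0.072 SE, edgeR adjusted p = 1.2e-10). Sqstm1 in the maturation window had a log2 fold change of 0.17 (limma adjusted p = 0.080), and it was called higher without PFNA library 1 (0.22, adjusted p = 0.0075).

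**Figure D2:**
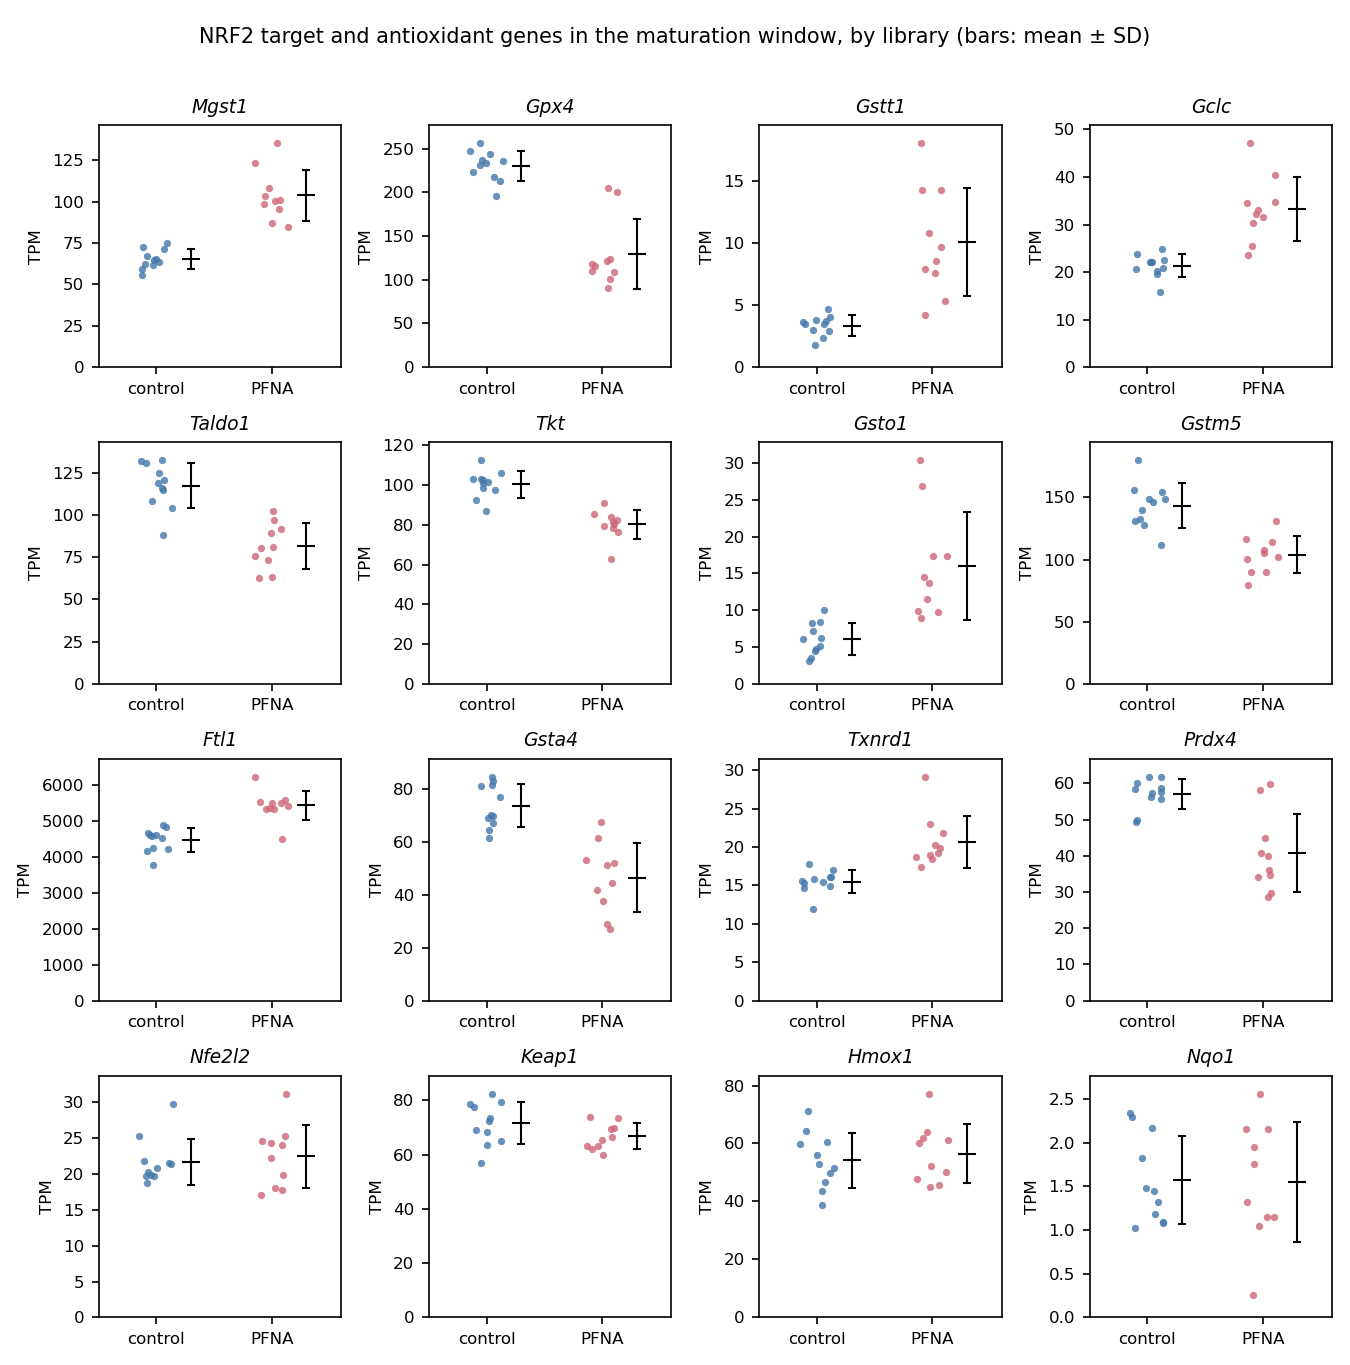
TPM by library (y axis, from 0) in the maturation window for the 12 genes with the smallest p and for Nfe2l2, Keap1, Hmox1 and Nqo1. Points are the 11 control and 10 PFNA libraries and bars are mean ± SD. For Gpx4, 2 PFNA libraries sit at 200.3 and 205 TPM, within the control range, and 8 sit at or below 124 TPM.

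**Figure D3:**
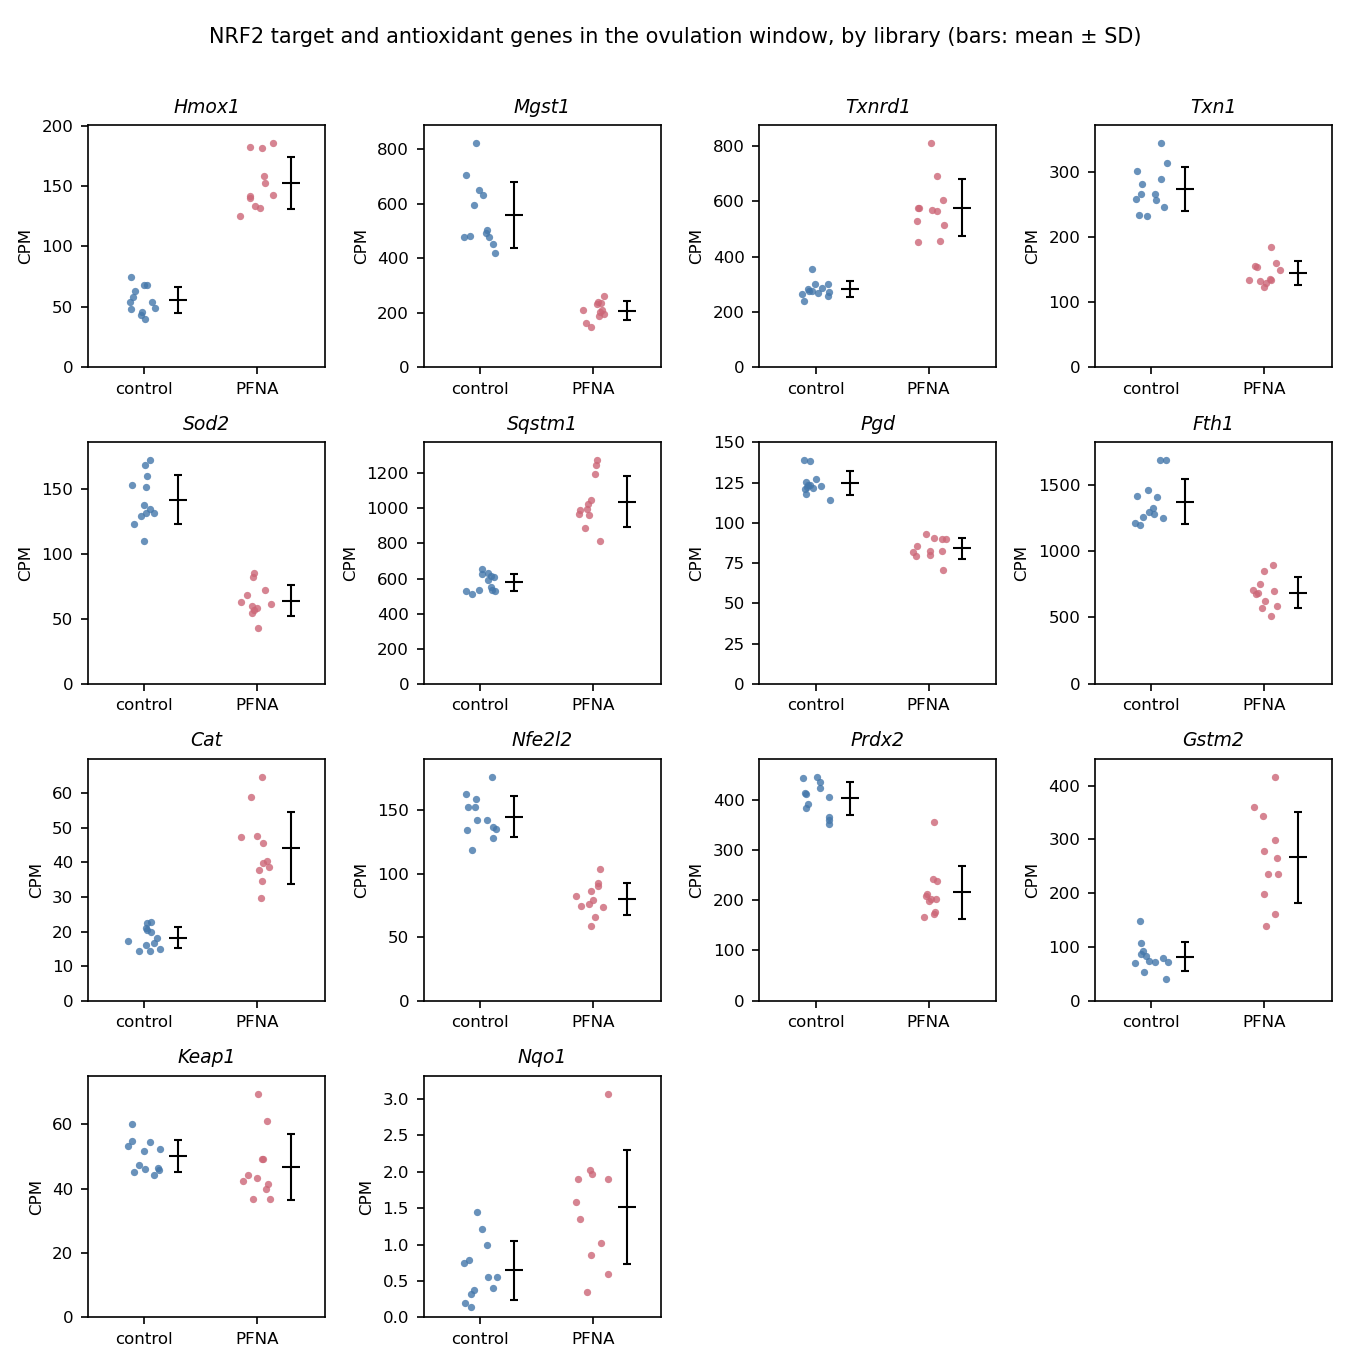
CPM by library (y axis, from 0) in the ovulation window for the 12 genes with the smallest p and for Keap1 and Nqo1 (Nfe2l2 and Hmox1 are among the 12). Points are the 12 control and 11 PFNA libraries and bars are mean ± SD. The groups do not overlap in the panels of Hmox1, Mgst1, Txnrd1, Txn1, Sod2, Sqstm1, Pgd, Fth1, Cat and Nfe2l2.

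Whether PFNA acted differently in the windows was tested gene by gene: the limma effect on log2(TPM + 1) during maturation was subtracted from the limma effect on log2(CPM + 1) during ovulation. The windows were deposited as separate tables in different units, so the window cannot be told apart from the table and its processing. The effect was higher in the ovulation window for 16 of the 41 genes (39.0%), beside a background of 32.0% of the 11213 genes tested in both, and lower for 16 (39.0%), beside a background of 35.6%. Mgst1 had the smallest p, with a difference of -2.07 (SE 0.13, adjusted p = 1.9e-17). Fth1 followed at -1.11 (SE 0.096, adjusted p = 1.2e-12) and Gclc at -1.57 (SE 0.16, adjusted p = 9.1e-12). Hmox1, Pgd and Sod2 were next, at 1.39, -0.76 (SE 0.08, adjusted p = 8.7e-11) and -1.003 (SE 0.11, adjusted p = 2.4e-10). The 4 genes that rose in both windows were Txnrd1, Prdx3, Cat and Gstt1. The effect on Txnrd1, Prdx3 and Cat was higher in the ovulation window, by 0.64, 0.35 and 0.77. For Gstt1 the test made no call, with a difference of 0.01 on these scales (SE 0.27). Adding 1 shrinks the effect on a gene this low (control mean 0.93 CPM during ovulation). The ovulation effect on Gstt1 was 1.27 on this scale and 2.04 in edgeR, so its small difference does not show equal effects in the windows. G6pdx was called lower at the threshold (adjusted p = 0.04998), a call lost with median-ratio size factors (0.15), a pseudocount of 0.1 (0.051) and in 30 of 44 fits that each left out 1 library (0.051 to 0.096), all but those without maturation control 5, 9 or 10, maturation PFNA library 1, 2 or 10, ovulation control 1, 3, 9 or 10, or ovulation PFNA library 2, 6, 9 or 10. Ftl1 was called lower (-0.18 in the main comparison) in 6 of those 44 fits (without maturation controls 8 or 11, maturation PFNA library 1, ovulation control 6, or ovulation PFNA libraries 3 or 5, with adjusted p = 0.012 to 0.045), and Sod1 was called higher in 2 (without maturation PFNA library 8, 0.024, or ovulation PFNA library 2, 0.040).

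By window, 4 genes rose in both (named above), 4 fell in both (Prdx5, Gsta4, Taldo1 and Tkt), 5 rose in the maturation window and fell in the ovulation window (Gclc, Srxn1, Gsto1, Mgst1 and Pgd), and 3 did the reverse (Gclm, Prdx4 and Gstm5). A further 11 were called higher in the ovulation window alone, 6 lower in it alone, and 4 (Keap1, Prdx6, Gstp1 and G6pdx) in neither. The remaining 4, Gpx8, Me1, Ftl1 (higher) and Gpx4 (lower), were called in the maturation window alone. The share of all genes with each of these combinations was not computed. Over all genes tested, 13.3% were higher and 16.1% lower in the maturation window. In the ovulation window 38.0% were higher and 35.2% lower. These shares are given for each window apart and do not give the share of all genes with shared or opposite calls. Whether such calls were more or less frequent among the genes described here than among all genes was not tested.

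The libraries of a group did not share these changes equally. Of the 20 genes called in the maturation window, PFNA libraries 1 and 2 lay beyond all controls, in the direction of the call, for 6 and 8. The other 8 PFNA libraries did so for 15 to 19, with library 10 the highest at 19. Libraries 1 and 2 had oocyte marker sums of 134 and 115 TPM, near the controls, whereas library 10 had 351 TPM, above every control. The part of this in the results was not tested beyond the fits given above. In the ovulation window, every PFNA library lay beyond all controls for 22 (library 6) to 31 (library 5) of the 33 called genes, and library 5 had the lowest oocyte marker sum, at 14.3 CPM. In both windows the genes counted were called from these same libraries, so high counts are partly fixed by that choice. The counts describe the libraries only, and the same counts over all called genes were not made.

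**Figure D4:**
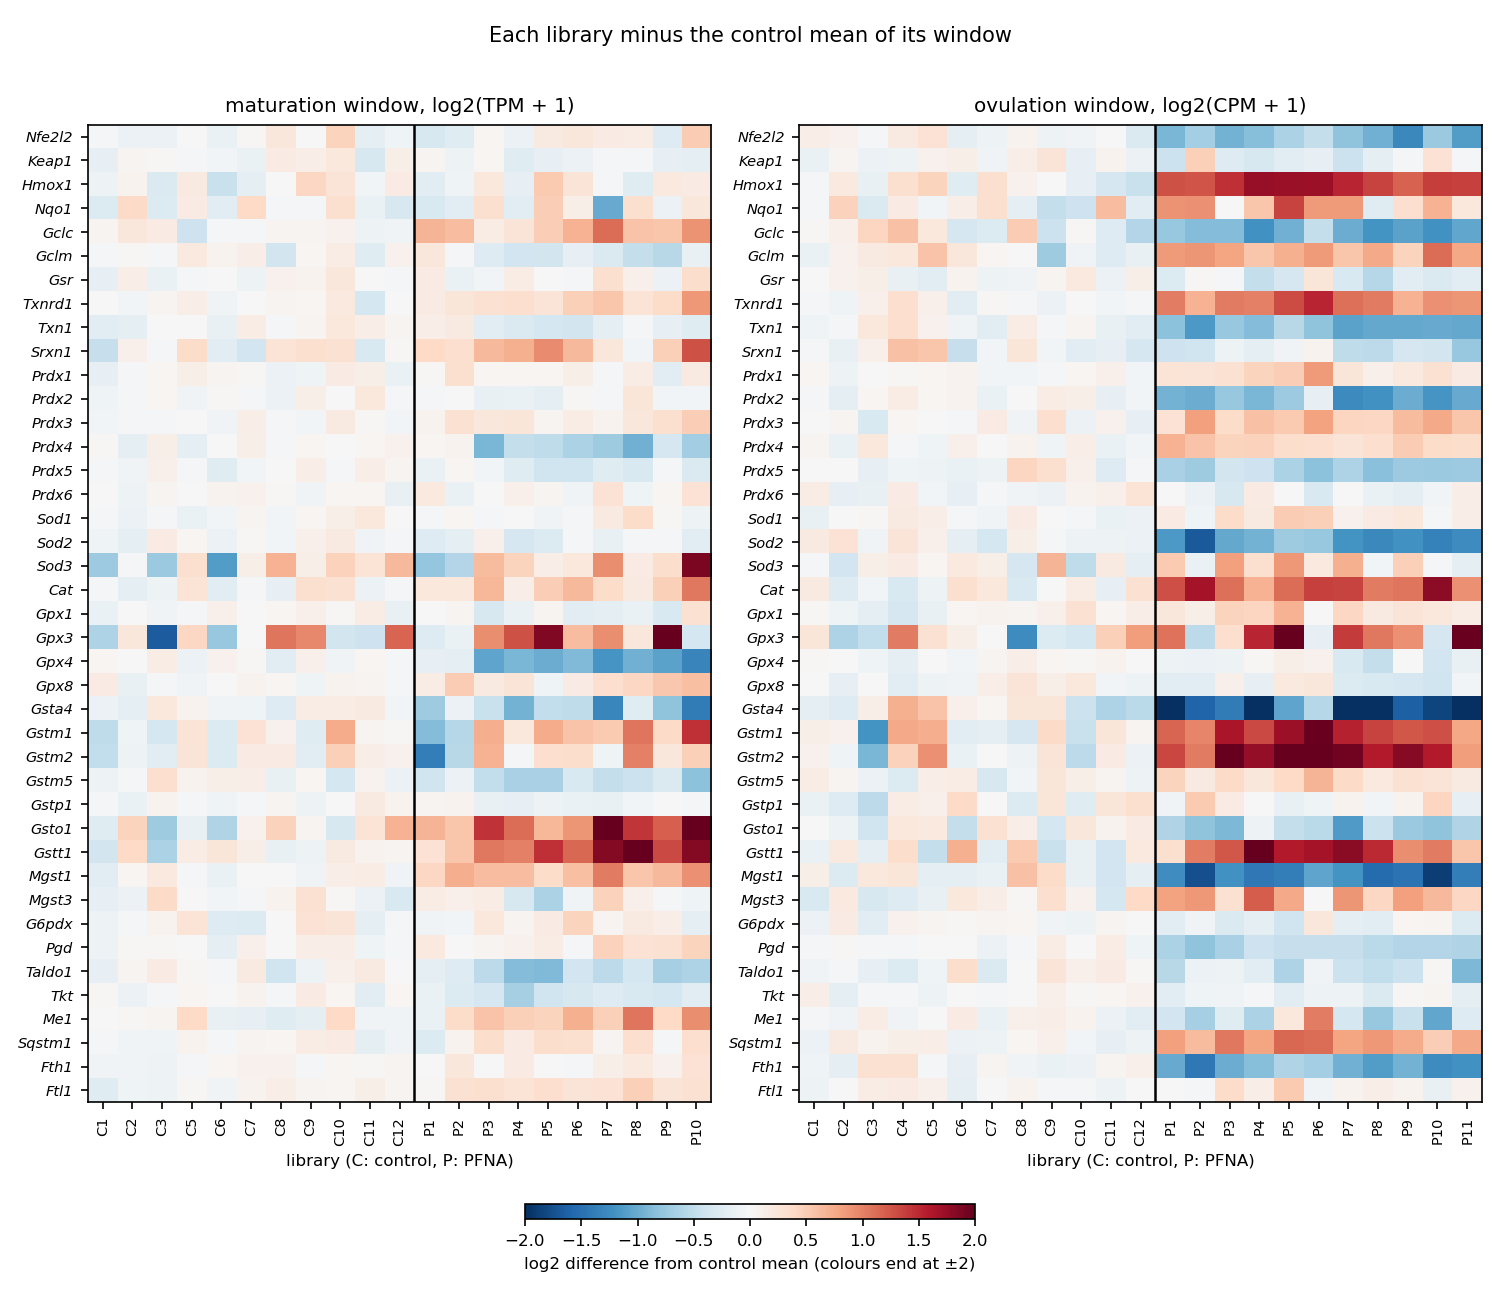
Colour shows each library's log2 level minus the control mean of its window, for the 41 genes (rows) and the libraries (columns) of the maturation window (left, log2(TPM + 1)) and the ovulation window (right, log2(CPM + 1)). A black line divides controls from PFNA, and colours end at a difference of 2 in either direction. In the maturation window, PFNA libraries 1 and 2 are paler than libraries 3 to 10 for Gpx4 and Prdx4.

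Levels among maturation controls ran from 4468 TPM for Ftl1 to 1.57 TPM for Nqo1. Ftl1 and Fth1 together held 52.5% of the TPM of the 41 genes in these controls, and the 41 genes held 1.12 ± 0.069% (SD, n = 11) of all TPM, against 1.26 ± 0.10% (SD, n = 10) under PFNA. Below Fth1 (1389.8 ± 63.8 TPM in controls and 1498 ± 116 TPM under PFNA), the highest control means were those of Gstm2 (618 TPM), Gpx1 (528 TPM) and Prdx2 (465 TPM), whose ranges overlapped in part between neighbours. Controls varied little for most of the genes: the median coefficient of variation was 9.55% in the maturation window and 12.2% in the ovulation window, and it was over 25% for 5 and 7 genes. The lowest was 4.59% for Fth1 in the maturation window and 4.17% for Prdx1 in the ovulation window, and the highest in the ovulation window was 63.0% for Nqo1, at the counts given above.

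Beyond the 41 genes, a list of 72 partner genes of the same pathways was followed. In the maturation window 59 were tested: 17 (28.8%) were higher, beside 13.3% of all genes, and 10 (16.9%) were lower, beside 16.1%. The 3 higher genes with the smallest p were Txnip, the thioredoxin inhibitor (562 ± 158 TPM in controls and 1210.4 ± 276 TPM under PFNA, log2 fold change 1.12 ± 0.17 SE, limma adjusted p = 5.1e-05), the glutathione transferase Gstt2 (log2 fold change 0.49) and the sestrin Sesn3 (0.94). The 3 lower ones were Slc3a2, the heavy chain of the cystine transporter (log2 fold change -0.77 ± 0.11 SE, limma adjusted p = 4.0e-05), Chac2, which degrades glutathione (-0.61), and the peroxidase Gpx7 (-0.77). Slc7a11, the other subunit of that transporter, was too low to be tested here (0.099 ± 0.018 TPM in controls and 0.117 ± 0.049 TPM under PFNA). With the oocyte covariate, 5 partner genes were higher and 3 lower, and Chac2, Gpx7 and Sesn3 were not called.

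In the ovulation window 63 partner genes were tested: 33 (52.4%) were higher, beside 38.0% of all genes, and 20 (31.7%) were lower, beside 35.2%. Chac1, a glutathione-degrading enzyme, rose, with 1.56 ± 0.638 CPM in controls and 31.9 ± 19.4 CPM under PFNA (log2 fold change 4.36 ± 0.30 SE, edgeR adjusted p = 3.4e-12). The other leading higher genes were Nnt, a mitochondrial transhydrogenase that makes NADPH (log2 fold change 1.35), and the glutathione transferase Gstz1 (2.11). Bach1, a repressor that competes with NRF2 at antioxidant response elements, fell, with 245 ± 60.4 CPM in controls and 91.6 ± 12.5 CPM under PFNA (log2 fold change -1.42 ± 0.12 SE, edgeR adjusted p = 5.4e-11). Ugdh, which makes glucuronic acid for conjugation, and the carbonyl reductase Cbr3 fell too (log2 fold change -1.83 and -2.28). Bach1 and Cbr3 were called higher in the maturation window (log2 fold change 0.50 and 0.58). Of the other glutathione transferases, 7 of 8 tested were higher in the ovulation window, and of 13 tested genes of glutathione supply and turnover, 4 were higher and 8 lower, among the latter the cystine transporter subunits Slc7a11 and Slc3a2 and glutathione synthetase Gss. The effect was higher in the ovulation window for 29 of the 58 partner genes tested in both (50%, beside 32.0% of all genes) and lower for 18 (31.03%, beside 35.6%).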

How the data were processed

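The deposited ovulation table holds estimated counts per gene, 9.82% of them not whole (more than 0.01 from a whole number), and they were rounded. The deposited maturation table holds TPM computed by the authors, judged from the values: the ratio of its levels to ovulation levels falls with transcript length (slope -1.22 on log scales over 7534 genes). Per the submitters' processing notes, Partek, Bowtie2 and HISAT2 were used, and their roles and the build are not given in the sources used here. Gene starts in the maturation table match GENCODE M21 (GRCm38) for 99.3% of symbols.

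For maturation, limma 3.58.1 was fitted to log2(TPM + 1), leaving out genes whose mean was below 1 TPM. A fold change on this scale understates the change of low genes. Ovulation was tested with edgeR 4.0.16 (quasi-likelihood, filterByExpr, TMM). P-values were adjusted by Benjamini-Hochberg over all genes, and both scripts were tested on simulated data. SE of edgeR fold changes is the fold change divided by the square root of F. Alternatives were another pseudocount, no filter, other scaling, DESeq2 1.42.0, a replicate block, an oocyte score covariate and libraries left out. Per window, values by library are given for the 12 of the 41 genes with the smallest p and for Nfe2l2, Keap1, Hmox1 and Nqo1, and 6 genes are named for the difference. Partner genes named are the 3 called higher and the 3 called lower with the smallest p, and those named beyond these were chosen after their values were seen. The genes and lists were chosen with earlier results of these data known. Maturation control 4 was not analysed here. No pair of libraries agreed closely enough to be 1 library deposited under 2 names.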

Additional observations from a re-analysis of the deposited data

Results flagged for a closer look

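In the maturation PFNA group of 10 libraries, each of the 41 genes was searched for a library standing apart from the rest (a gap to its neighbour above 0.466 of the whole range). For independent groups of normally distributed values, chance gives such a gap in about 1 of 20 groups, or 2.05 of 41, and 6 were found. The 41 genes share the same 10 libraries and are not independent, so 6 cannot be judged against 2.05 as a test. The groups of the other comparisons hold more than 10 libraries and were not searched. Library 10 was the highest for Txnrd1, at 29.14 TPM, for Sod3, at 150.5 TPM, and for Cat, at 40.94 TPM. Library 8 was the highest for Prdx2, at 549.7 TPM. Library 4 was the lowest for Tkt, at 62.73 TPM, and library 1 the lowest for Ftl1, at 4514 TPM.

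The PFNA effect differed between windows, by the test of the difference, in 32 of the 41 genes: it was higher in the ovulation window for 16 (39.0%, beside 32.0% of all genes tested) and lower for 16 (39.0%, beside 35.6%).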

How the results depend on the processing

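Over the alternatives, the numbers of the 41 genes called stayed within 1.5 times those reported, except with the oocyte score as covariate in the maturation window, where 3 were lower instead of 8. Of the partner genes in that window, 5 were then higher instead of 17 and 3 lower instead of 10. Gclm in the maturation window changed sign with that covariate (log2 fold change 0.0024, limma adjusted p = 0.99). The cause was not tested. Over all genes of the maturation window, calls were 1824 higher and 2206 lower in the reported comparison and 539 and 513 with the covariate, 1032 and 1863 with the replicate block, and 2725 and 1878 with TPM rescaled without 7 genes that share sequence with mitochondrial RNA, an alternative chosen after seeing the data. That rescaling moved the median of all genes from 0.02 to 0.08 and left 14 of the 41 genes higher and 7 lower, with Sqstm1 and Fth1 gained and Gclm lost. The 7 genes held 17.4 ± 1.72% of TPM in controls (SD, n = 11) and 20.8 ± 1.63% under PFNA (SD, n = 10).

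Leaving out 1 library at a time gave 11 to 14 higher and 7 to 9 lower of the 41 genes in the maturation window, 17 to 18 and 14 to 19 in the ovulation window, and 16 to 17 and 15 to 17 for the difference. The median log2 fold change stayed between 0.05 and 0.09 in the maturation window and between -0.10 and -0.05 in the ovulation window. Partner genes called ranged from 14 to 17 and 7 to 11, from 33 to 34 and 19 to 21, and from 27 to 30 and 17 to 19. With no filter on low counts, 7132 genes were higher and 5058 lower in the ovulation window, against 5101 and 4736.

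Libraries with the same replicate number share only a number: their deviations correlated from -0.14 to 0.17 in the maturation window and from -0.20 to 0.07 in the ovulation window, and a library correlated best with its own number for 1 of 9 and 0 of 11 numbers. With the replicate block, 12 and 7 of the 41 genes were called in the maturation window (Gclm not called) and 18 and 15 in the ovulation window (Tkt not called, Me1 called), and 6 partner genes were lower in the maturation window instead of 10. For the difference G6pdx was then not called and Ftl1 was. The unknown depth of the maturation libraries, and the few counts of Nqo1 and Gstt1 in the ovulation window, limit precision.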
